A study of Homo sapiens with 18 samples.

Results

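The S100 genes encode small calcium-binding proteins. Described here are 10 of them, *S100A2*, *S100A4*, *S100A6*, *S100A7*, *S100A8*, *S100A9*, *S100A10*, *S100A11*, *S100A14* and *S100P*, out of 19775 genes named on the array. They were chosen by name, and each was read by its probe set with the highest mean level over all 18 arrays. The probe sets used for *S100A4* and *S100A8* carry the suffix that Affymetrix gives to those that may cross-hybridise to similar transcripts.

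RNA of 3 human mammary epithelial lines, M1B26, MC26 and MCF10A-CT, was hybridised to Affymetrix expression arrays of the HG-U133 Plus 2.0 design. MCF10A-CT is the immortalised, non-malignant MCF10A line grown in standard medium. MC26 was obtained from MCF10A by long exposure to BMP2, a bone morphogenetic protein, and the cytokine IL6, and M1B26 by the same exposure of MCF10A cells first sorted for the receptor BMPR1B, from which 3 soft-agar clones were expanded. Both derived lines were kept in IL6 at 10 ng/ml and BMP2, for which the labels state 5 ng/ml in one field and 10 ng/ml in another. Each line was profiled as CD10+ cells, as CD10- cells and unsorted, with 2 arrays per group and 9 groups. CD10 is a membrane peptidase encoded by *MME*. Sorted cells were stained and passed through the sorter, whereas unsorted cells were frozen after trypsin, so the sort and its handling cannot be told apart.

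S100 proteins mostly form dimers that change shape when calcium binds and then attach to partner proteins such as annexins and cytoskeletal proteins. Many of their genes lie together on chromosome 1, within the cluster that also holds genes of the epidermal barrier. In epithelia, S100A8 and S100A9 pair to form calprotectin, an antimicrobial and inflammatory complex best known from neutrophils, S100A7 (psoriasin) and S100P are associated with differentiation and with tumours, S100A4 with motile and mesenchymal cells, and S100A14 with epithelial cells. Among the 10 genes, 9 lie on chromosome 1 and *S100P* on chromosome 4.

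All arrays had a median intensity of 16.7, and correlations of log2 levels between arrays were 0.90 to 0.96, with 0.94 to 0.95 between replicates. The 3'/5' signal ratio of the ACTB control probe sets, a sign of RNA integrity, was 1.11 to 1.34 on the sorted arrays and 1.56 to 2.14 on the unsorted arrays, with no overlap. The same ratio of the GAPDH control probe sets was 0.93 to 1.06 on the sorted and 0.95 to 1.10 on the unsorted arrays, which overlapped. The mean log2 level of 10 G2-M genes was 7.88 to 8.38 on the 4 sorted MCF10A-CT arrays and 9.17 to 10.1 on the other 14 arrays. Of 10 myeloid markers, 9 were read, and the leukocyte gene *PTPRC* did not exceed an intensity of 8.94 on any array, although *CD14* reached 129 to 445. Of 10 mammary epithelial markers, 7 were read. The keratin *KRT5* was at 3776 to 7924 on every array, *KRT18* at 2747 to 5709 and *KRT8* at 452 to 1944. On their lowest arrays *KRT14* was at 312, *EPCAM* at 111 and *CDH1* at 39.6, and *KRT19* did not exceed 16.5 on any array. *MME* was at 1269 and 1021 in CD10+ M1B26 cells, against 56.4 and 15.9 in CD10- M1B26 cells. In MC26 it was at 69.8 and 90.7 in CD10+ cells and 27.8 and 6.39 in CD10- cells, and in MCF10A-CT at 48.3 and 65.0 in CD10+ cells and 9.73 and 11.3 in CD10- cells.

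The stretch upstream of the start is shown for the 5 of the 9 tested members whose group means differed most. Each is the 250 bases before the RefSeq start (GRCh38.p14), read 5' to 3' on the gene's strand, with the E-box CAGGTG (either strand, CACCTG on the other) and TATAAA (gene strand only) in capitals. For *S100A8*, with 3 starts listed, the one shown is that whose TATAAA lies closest to 30 bases upstream.
S100A14 (chr1:153616326-153616575, minus strand): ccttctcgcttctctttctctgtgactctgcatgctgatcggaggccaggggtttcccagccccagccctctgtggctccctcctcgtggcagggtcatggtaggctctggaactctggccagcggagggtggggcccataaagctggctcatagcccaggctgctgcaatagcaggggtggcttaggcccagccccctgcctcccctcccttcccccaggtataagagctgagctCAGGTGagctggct
S100A4 (chr1:153545807-153546056, minus strand): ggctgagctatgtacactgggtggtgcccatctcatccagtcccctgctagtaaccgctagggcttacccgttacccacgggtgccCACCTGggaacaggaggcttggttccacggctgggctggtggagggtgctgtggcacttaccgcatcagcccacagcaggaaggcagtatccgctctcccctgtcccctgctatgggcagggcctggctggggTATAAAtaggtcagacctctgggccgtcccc
S100A8 (chr1:153391074-153391323, minus strand): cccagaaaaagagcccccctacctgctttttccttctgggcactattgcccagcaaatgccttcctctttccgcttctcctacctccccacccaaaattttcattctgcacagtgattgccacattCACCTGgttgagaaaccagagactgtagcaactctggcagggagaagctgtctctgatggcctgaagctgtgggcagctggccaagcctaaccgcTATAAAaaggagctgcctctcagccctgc
S100A9 (chr1:153357604-153357853, plus strand): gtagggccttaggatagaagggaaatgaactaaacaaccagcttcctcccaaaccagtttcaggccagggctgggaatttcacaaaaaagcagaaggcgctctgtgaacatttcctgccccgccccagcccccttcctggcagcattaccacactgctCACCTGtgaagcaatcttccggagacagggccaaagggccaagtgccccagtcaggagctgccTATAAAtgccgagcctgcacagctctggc
S100P (chr4:6693628-6693877, plus strand): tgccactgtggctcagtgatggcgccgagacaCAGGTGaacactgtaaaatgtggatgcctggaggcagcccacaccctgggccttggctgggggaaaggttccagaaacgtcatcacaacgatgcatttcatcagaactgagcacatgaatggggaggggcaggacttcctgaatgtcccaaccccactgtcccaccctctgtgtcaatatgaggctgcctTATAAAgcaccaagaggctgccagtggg
In this window the E-box was found in 7 of the 10 genes (*S100A2*, *S100A4*, *S100A7*, *S100A8*, *S100A9*, *S100A14* and *S100P*), against 20.6% of all 27305 genes listed, and TATAAA in 5 of the 10 (*S100A4*, *S100A7*, *S100A8*, *S100A9* and *S100P*), against 8.38% of genes. The AP-1 letters TGANTCA were found in *S100A2* alone (8.06% of genes) and the STAT letters TTCNNNGAA in none of the 10 (8.09% of genes). These matches describe letters in the window and were not tested as sites.

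The members fell into a narrow and a wide set (the plot of levels by group). On the probe sets used, *S100A11*, *S100A10*, *S100A6* and *S100A2* varied 1.59-, 2.15-, 2.16- and 2.34-fold between the lowest and the highest array. *S100A9* varied 8.53-fold, *S100A8* 9.57-fold, *S100A4* 13.4-fold, *S100A14* 32.4-fold and *S100P* 92.0-fold. *S100A7* varied 347-fold but was near background on most arrays. Its mean log2 level of 3.93 lay just under the filter on low levels, which was also 3.93 after rounding, so 9 of the 10 members were tested.

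**Figure D1:**
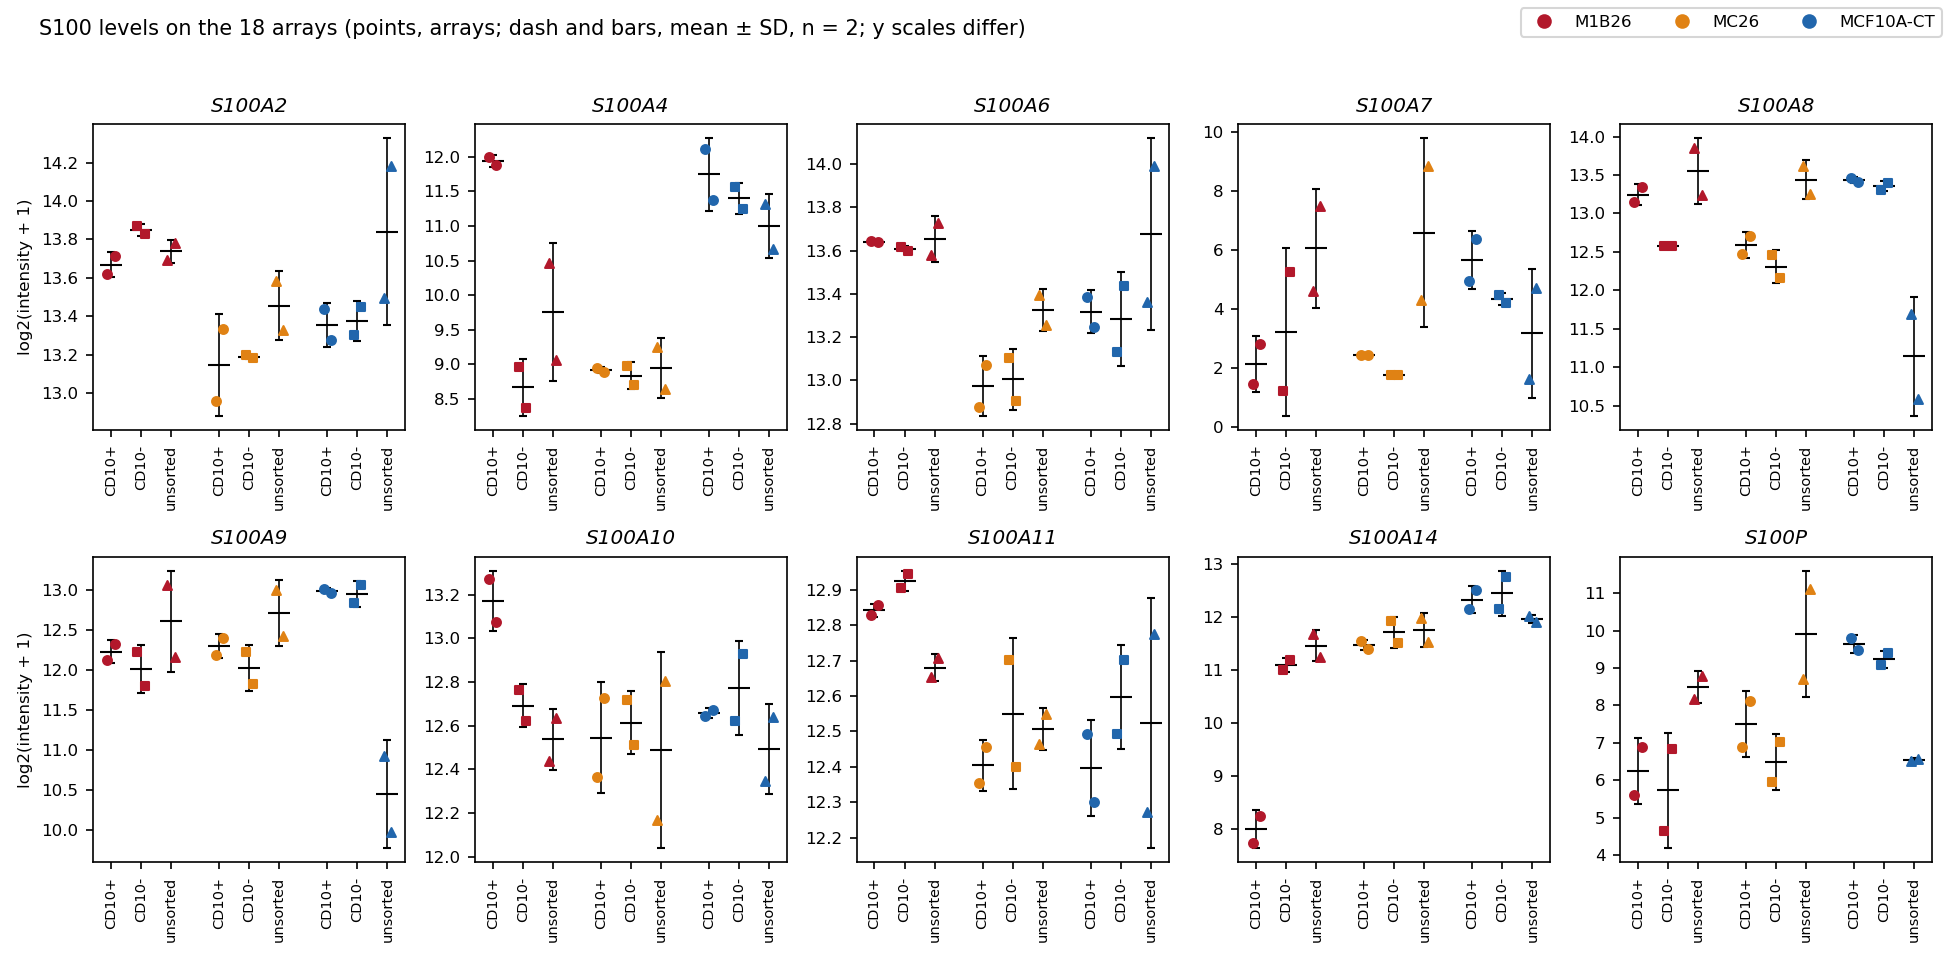
Levels of the 10 S100 genes, log2(intensity + 1), on each of the 18 arrays, by line (colour) and population (x axis); dashes and bars are the mean and SD of 2 arrays, and y scales differ between panels. *S100A14* stood lowest in CD10+ M1B26 cells (212 and 303 in intensity), where *S100A4* was high (4089 and 3763), and *S100A8* and *S100A9* stood lowest in unsorted MCF10A-CT cells.

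CD10+ and CD10- cells of M1B26 differed in *S100A14* and *S100A4*, in opposite directions. *S100A14*, whose protein is linked to epithelial cell junctions and invasion, had an intensity of 212 and 303 in CD10+ M1B26 cells, against 2051 and 2336 in CD10- M1B26 cells. The CD10+ arrays of M1B26 were the lowest of all 18, far below the remaining 16, which held 2051 to 6873. The difference was -3.10 ± 0.25 on the log2 scale (SE, n = 2 per group, limma adjusted p = 3.17e-06), an 8.60-fold decrease.

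*S100A4*, also called metastasin or fibroblast-specific protein, had an intensity of 4089 and 3763 in CD10+ M1B26 cells, against 498 and 331 in CD10- M1B26 cells. The 2 pairs of arrays did not overlap. The difference was 3.27 ± 0.38 (limma adjusted p = 8.18e-05), a 9.64-fold increase. Unsorted M1B26 cells lay between them, at 1417 and 532. No other member passed the threshold in M1B26, so 2 of 9 tested members were called, against 6.50% of all 12171 genes tested. The next closest were *S100A8* (0.67 ± 0.27, adjusted p = 0.168) and *S100A10*, the annexin A2 partner (0.48 ± 0.20, adjusted p = 0.180), both called when the 4 M1B26 sorted arrays were fitted alone (limma adjusted p = 0.00288 and 0.0274), a fit with 2 residual degrees of freedom.

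The CD10 difference of M1B26 also exceeded those of the other lines. For *S100A14* it lay -2.99 ± 0.35 from that of MCF10A-CT (limma adjusted p = 0.00066) and -2.87 ± 0.35 from that of MC26 (adjusted p = 0.000743). For *S100A4* it was higher by 2.92 ± 0.54 (adjusted p = 0.0122) and 3.18 ± 0.54 (adjusted p = 0.00714). These were 2 of 9 members in each comparison, against 1.38% of genes against MCF10A-CT and 1.27% against MC26. The *S100A4* result against MCF10A-CT was lost without MCF10A-CT CD10+ replicate 2, M1B26 CD10- replicate 2, or either M1B26 CD10+ replicate (difference 2.55 to 2.98, adjusted p = 0.0507 to 0.0888), and that against MC26 without M1B26 CD10- replicate 2 (2.89, adjusted p = 0.0554).

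No member was called between CD10+ and CD10- cells of MC26 or of MCF10A-CT, where 0% of genes passed the limma test in either line. No member had an unadjusted p under 0.05. *MME*, the gene of the sort, was not called there either, although its CD10+ and CD10- arrays stood apart in both lines. Of 12171 genes, 100 in MC26 and 166 in MCF10A-CT had an unadjusted limma p under 0.05. The lack of a call thus does not show equal levels. *S100A14* was at 2969 and 2703 in CD10+ MC26 cells, against 3854 and 2897 in CD10- MC26 cells (-0.24, 95% interval -0.76 to 0.29). In MCF10A-CT it was at 4528 and 5814 in CD10+ cells, against 4509 and 6873 in CD10- cells (-0.12, interval -0.64 to 0.41). *S100A4* differed by 0.09 (interval -0.73 to 0.91) in MC26 and by 0.35 (interval -0.47 to 1.17) in MCF10A-CT, and *S100P* by 1.01 (interval -0.55 to 2.57) and 0.40 (interval -1.15 to 1.96). *S100A4*, *S100A7* and *S100P* belong to a signature that the study drew from the 4 sorted MCF10A-CT arrays, so their CD10 differences in that line are not independent evidence. Between the CD10 differences of MC26 and MCF10A-CT no member was called (0% of genes). Averaged over the 3 lines, *S100A14* was lower (-1.15 ± 0.14, adjusted p = 0.00114) and *S100A4* higher (1.23 ± 0.22, adjusted p = 0.0109) in CD10+ cells, against 1.14% of genes, and both averages carry the M1B26 difference. Without M1B26 CD10- replicate 2, the *S100A4* average was 1.14 (adjusted p = 0.0564).

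**Figure D2:**
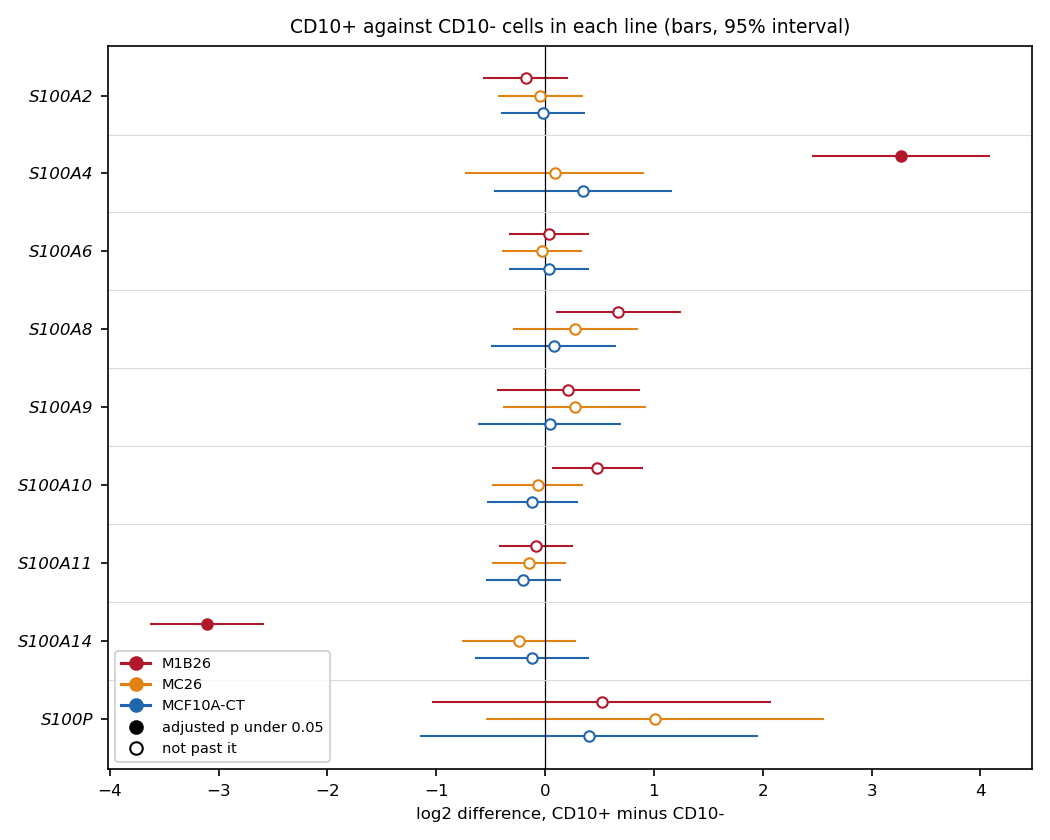
Difference in log2 level, CD10+ minus CD10- cells, of the 9 tested S100 genes in each line, with 95% intervals; filled points passed an adjusted p of 0.05. In M1B26 *S100A4* lay at 3.27 and *S100A14* at -3.10, and no point of MC26 or MCF10A-CT was filled.

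Between CD10+ and CD10- M1B26 cells, mesenchymal and epithelial markers differed along with these 2 genes. All 10 mesenchymal markers were read, and their mean log2 level was 10.2 and 10.4 in CD10+ M1B26 cells, against 6.99 and 7.91 in CD10- M1B26 cells and 6.11 to 7.94 on the 16 other arrays together. The mean of the 7 epithelial markers read was 8.56 and 8.50 in CD10+ M1B26 cells and 10.3 and 9.70 in CD10- M1B26 cells. In CD10+ MCF10A-CT cells the mesenchymal mean was 7.20 and 7.57, with *S100A4* at 4437 and 2656. In CD10+ MC26 cells it was 6.71 and 6.91, with *S100A4* at 493 and 474. In CD10- M1B26 cells, at 7.91 and 6.99, *S100A4* was at 498 and 331. The part of these markers in the *S100A4* and *S100A14* differences was not tested. The genes whose 9 group means ran closest to *S100A14* were *CDH1*, encoding E-cadherin (r = 0.989), *ESRP1*, an epithelial splicing factor (r = 0.988), and *SPINT2*, a protease inhibitor (r = 0.984). Those closest to *S100A4* were *OPN3* (r = 0.994), *LTBP3* (r = 0.980) and *CSGALNACT1* (r = 0.980). These correlations over 9 groups are descriptions.

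*S100A8* and *S100A9*, the calprotectin pair, varied with line and with sorting together. *S100A8* was at 10164 to 11297 on the 4 sorted MCF10A-CT arrays, against 3303 and 1545 on the unsorted MCF10A-CT arrays. *S100A9* was at 7290 to 8548 on the sorted arrays, against 1943 and 1002 on the unsorted ones. Neither gene's sorted and unsorted arrays overlapped in this line. The differences were 2.25 ± 0.23 (limma adjusted p = 8.96e-05) and 2.52 ± 0.27 (adjusted p = 9.52e-05).

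In the derived lines the unsorted cells were high instead. *S100A8* was at 6087 to 10362 on the 4 sorted M1B26 arrays and 14785 and 9714 on the unsorted ones, and at 4571 to 6682 on the sorted MC26 arrays and 12571 and 9804 on the unsorted ones. Sorted and unsorted arrays overlapped in M1B26 and stood apart in MC26. The differences were -0.64 ± 0.23 in M1B26 (adjusted p = 0.148) and -0.99 ± 0.23 in MC26 (adjusted p = 0.061). *S100A9* was at 3568 to 5126 on the sorted M1B26 arrays and 8492 and 4563 on the unsorted ones (-0.49 ± 0.27, adjusted p = 0.359), and at 3611 to 5395 on the sorted MC26 arrays and 8163 and 5481 on the unsorted ones (-0.55 ± 0.27, adjusted p = 0.359). The change with sorting thus differed from that of MCF10A-CT by -2.89 ± 0.33 for *S100A8* in M1B26 (adjusted p = 0.000713) and -3.24 ± 0.33 in MC26 (adjusted p = 0.000638). For *S100A9* it differed by -3.01 ± 0.38 in M1B26 (adjusted p = 0.00121) and -3.07 ± 0.38 in MC26 (adjusted p = 0.00247).

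The second *S100A8* probe set differed in part. Its level was 278 to 389 on the sorted M1B26 arrays, against 135 and 92.5 on the unsorted ones, and 267 to 439 on the sorted MC26 arrays, against 189 and 153 on the unsorted ones. Both probe sets placed unsorted MCF10A-CT cells lowest (59.6 and 29.4 on the second, against 247 to 484 in sorted cells). The sorted minus unsorted difference on the second probe set was 1.60 in M1B26 and 0.90 in MC26, so the direction of *S100A8* with sorting in M1B26 and MC26 depended on the probe set. Relative to the change in MCF10A-CT it was lower on both, at -1.40 and -2.10 on the second.

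**Figure D3:**
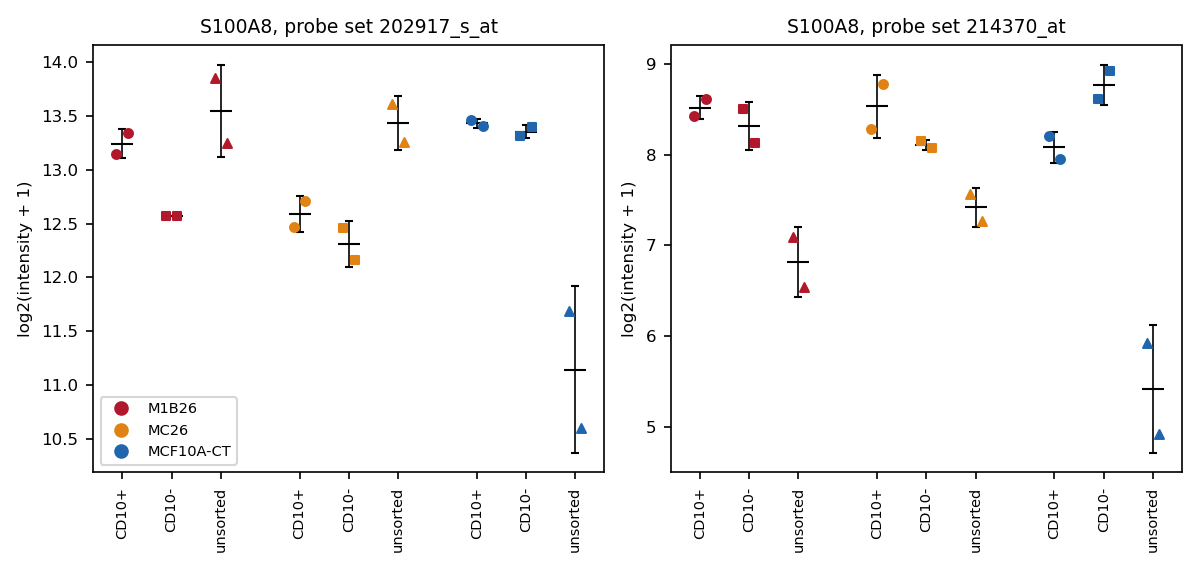
*S100A8* on its 2 probe sets, log2(intensity + 1), on each of the 18 arrays; dashes and bars are the mean and SD of 2 arrays. Unsorted MCF10A-CT arrays were lowest on both, whereas unsorted M1B26 and MC26 arrays were high on the left-hand probe set and below their sorted arrays on the right-hand one.

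*S100P*, a calcium-binding protein found in placenta and in many carcinomas, had the widest range of the 9 tested members. It was at 537 to 893 on the 4 sorted MCF10A-CT arrays, against 91.1 and 94.8 on the unsorted ones (2.88 ± 0.63, limma adjusted p = 0.00606; without MCF10A-CT unsorted replicate 1, 2.85 and adjusted p = 0.0595). In M1B26 it was at 23.9 to 117 on the sorted arrays, against 289 and 442 on the unsorted ones (-2.49 ± 0.63, adjusted p = 0.0377). In MC26 it was at 61.0 to 278 on the sorted arrays, against 418 and 2201 on the unsorted ones (-2.91 ± 0.63, adjusted p = 0.0472). The sorted and unsorted arrays did not overlap in any line, and unsorted MC26 replicate 2 stood far above the rest. Leaving out 1 of several arrays ended the call in M1B26 (either unsorted replicate, CD10- replicate 1 or CD10+ replicate 1; difference -2.80 to -1.95, adjusted p = 0.114 to 0.203). The same held in MC26 for unsorted replicate 2 and each of the 4 sorted arrays (-3.22 to -1.71, adjusted p = 0.0548 to 0.217). The change with sorting differed from that of MCF10A-CT by -5.38 ± 0.90 in M1B26 (adjusted p = 0.00419) and -5.79 ± 0.90 in MC26 (adjusted p = 0.00495).

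*S100A14* was lower in sorted than in unsorted M1B26 cells (-1.91 ± 0.21, adjusted p = 0.000247), where the sorted mean weights CD10+ and CD10- cells equally, and its change with sorting differed from that of MCF10A-CT by -2.34 ± 0.30 (adjusted p = 0.00121). *S100A2*, a p63-associated gene of basal epithelial cells, was lower in sorted MCF10A-CT cells (-0.47 ± 0.16, adjusted p = 0.0431). It was at 9909 to 11178 on the sorted arrays, against 11545 and 18611 on the unsorted ones. That call was lost without unsorted replicate 2, where the difference was -0.13, and without 3 of the 4 sorted arrays. It was also lost with quantile normalization and with arrays centred on the tested genes, and in 10 of 14 alternatives in all.

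In all, sorting was accompanied by calls for 4 of 9 members in MCF10A-CT, against 22.2% of genes, for 2 in M1B26, against 4.21%, and for 1 in MC26, against 0.822%. The change with sorting differed from that of MCF10A-CT for 4 of 9 in M1B26, against 11.9% of genes, and for 3 of 9 in MC26, against 6.07%. Over the 3 lines 2 of 9 were called, against 15.2%: *S100A9*, higher in sorted cells (0.49 ± 0.15, adjusted p = 0.0416), and *S100A14*, lower (-0.55 ± 0.12, adjusted p = 0.00827). The *S100A14* average carries the M1B26 difference of -1.91, and there CD10+ cells were at 212 and 303. CD10- M1B26 cells were at 2051 and 2336 and unsorted ones at 3255 and 2427. In MCF10A-CT *S100A14* was instead higher on the sorted arrays (4509 to 6873) than on the unsorted ones (4127 and 3852). In MC26 the sorted and unsorted arrays overlapped. The *S100A9* average holds a difference of 2.52 in MCF10A-CT beside -0.49 in M1B26 and -0.55 in MC26. Its call was lost when any 1 of 11 of the 18 arrays was left out (0.33 to 0.51, adjusted p = 0.056 to 0.165). The ACTB ratio separated sorted from unsorted arrays in every line, whereas the GAPDH ratio overlapped over the 18 arrays. The G2-M level was low only on the sorted MCF10A-CT arrays, where *S100A8*, *S100A9* and *S100P* were high. These genes were also high on unsorted M1B26 and MC26 arrays, where the G2-M level was 9.17 to 10.1. There *S100A8* was at 9714 to 14785, *S100A9* reached 8492 and *S100P* 2201. The part of the ACTB ratio and the G2-M level in these differences was not tested.

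**Figure D4:**
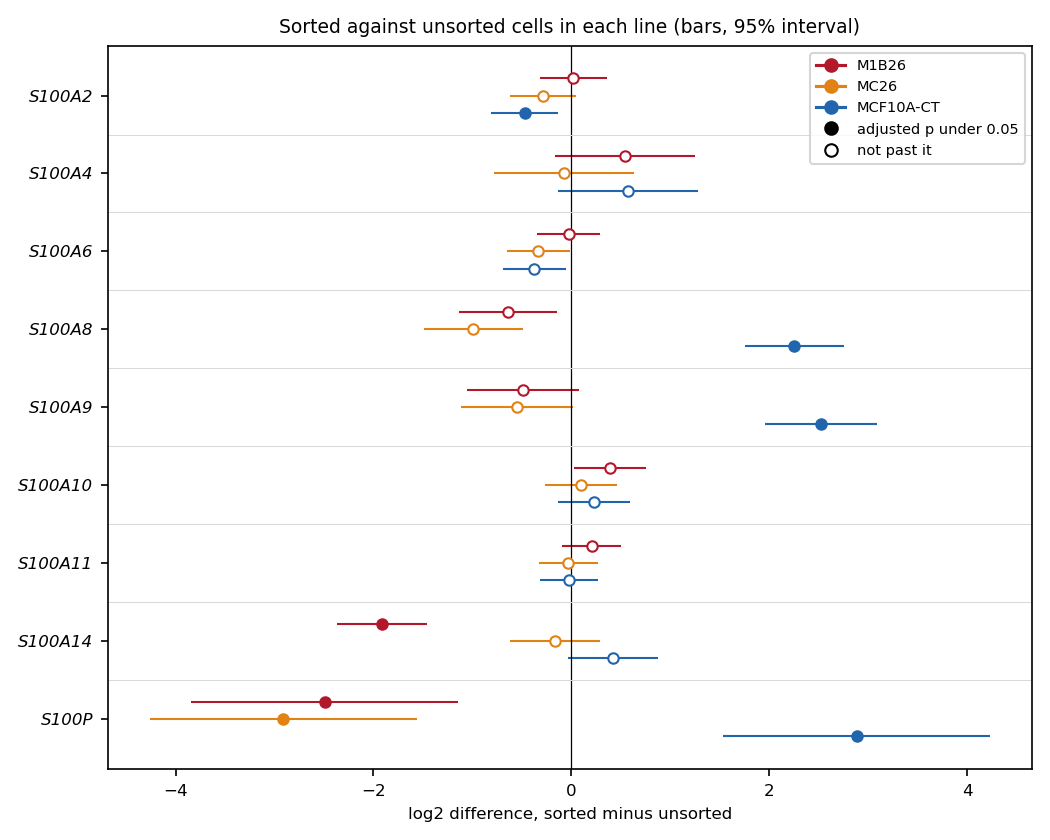
Difference in log2 level, sorted (mean of CD10+ and CD10-) minus unsorted cells, of the 9 tested S100 genes in each line, with 95% intervals; filled points passed an adjusted p of 0.05. *S100A8*, *S100A9* and *S100P* lay at 2.25, 2.52 and 2.88 in MCF10A-CT and below 0 in both derived lines.

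Between lines, unsorted cells and sorted cells gave different orders for the calprotectin pair. In unsorted cells *S100A8* was higher than in MCF10A-CT by 2.41 ± 0.27 in M1B26 (limma adjusted p = 0.000319) and 2.30 ± 0.27 in MC26 (adjusted p = 0.000511). *S100A9* was higher by 2.16 ± 0.31 in M1B26 (adjusted p = 0.0027) and 2.26 ± 0.31 in MC26 (adjusted p = 0.00178). Without MCF10A-CT unsorted replicate 2, the *S100A9* differences were 1.68 (adjusted p = 0.0661) and 1.78 (adjusted p = 0.0538), and without M1B26 unsorted replicate 1 the first was 1.71 (adjusted p = 0.0521). *S100P* differed by 3.35 ± 0.73 in unsorted MC26 cells and did not pass (adjusted p = 0.0719). The value was 2.16 (adjusted p = 0.373) without unsorted MC26 replicate 2, and 4.55 (adjusted p = 0.00621) without replicate 1. Replicate 2 was also the highest of the 18 arrays for the cornified envelope genes *SPRR1B*, *SPRR1A*, *SPRR2B* and *IVL*. They were at 417, 105, 77.0 and 51.5, against 15.0, 27.2, 13.2 and 9.82 in replicate 1. It was not the highest array for the rest of the 7 cornified envelope genes tested. *SPRR3* and *LCE3D* were at 28.0 and 65.0 in replicate 2, against 14.8 and 19.0 in replicate 1. *TGM1* went the other way, at 20.6 in replicate 2 and 43.6 in replicate 1. The part of the cornified envelope genes in the *S100P* value was not tested. With *S100A4*, which was lower in unsorted MC26 cells (-2.05 ± 0.38, adjusted p = 0.0279; -1.72 to -2.37 and not called without either MCF10A-CT unsorted replicate or MC26 unsorted replicate 2), 2 of 9 members were called in M1B26, against 0.674% of genes, and 3 of 9 in MC26, against 0.32%. None was called between unsorted M1B26 and MC26 cells (0.0986% of genes, no member with an unadjusted p under 0.05).

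Among sorted cells the members called against MCF10A-CT were all lower. *S100A4* was at 498 and 331 in CD10- M1B26 cells and 501 and 413 in CD10- MC26 cells, against 3014 and 2416 in CD10- MCF10A-CT cells (-2.73 ± 0.38, adjusted p = 0.000468, and -2.57 ± 0.38, adjusted p = 0.000853). In CD10+ cells it was at 493 and 474 in MC26, against 4437 and 2656 in MCF10A-CT (-2.82 ± 0.38, adjusted p = 0.00152). CD10+ M1B26 cells, at 4089 and 3763, overlapped those of MCF10A-CT (0.19, 95% interval -0.63 to 1.01). *S100A4* was thus high in the 6 MCF10A-CT arrays (1632 to 4437) and in CD10+ M1B26 cells, and at 399 to 611 on all 6 MC26 arrays.

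*S100A14* was lower than in MCF10A-CT in CD10+ M1B26 cells (-4.33 ± 0.25, adjusted p = 6.23e-08), a 20.2-fold difference, and in CD10- M1B26 cells (-1.35 ± 0.25, adjusted p = 0.00188). In MC26 the differences were -0.86 in CD10+ cells (adjusted p = 0.0329) and -0.74 in CD10- cells (adjusted p = 0.0473). Neither MC26 call held without the second MCF10A-CT replicate or either MC26 replicate of that population (-0.92 to -0.68 and -0.94 to -0.43). *S100P* was lower in CD10+ M1B26 cells (-3.38 ± 0.73, adjusted p = 0.0047), in CD10- M1B26 cells (-3.50 ± 0.73, adjusted p = 0.0038) and in CD10- MC26 cells (-2.74 ± 0.73, adjusted p = 0.0184). Without M1B26 CD10+ replicate 1 the first was -2.76 (adjusted p = 0.0533), and without M1B26 CD10- replicate 1 the second was -2.41 (adjusted p = 0.0661). The MC26 difference was -2.58 and -2.21, not called, without MCF10A-CT CD10- replicate 2 or MC26 CD10- replicate 1.

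*S100A8* and *S100A9* were also called lower in CD10- M1B26 cells (-0.78 and -0.94, adjusted p = 0.043 and 0.036) and in CD10- MC26 cells (-1.05 and -0.93, adjusted p = 0.0157 and 0.0459), and *S100A8* in CD10+ MC26 cells (-0.85, adjusted p = 0.049), where the second probe set ran the other way (0.45). Each of these calls was lost when 1 of several arrays was left out (adjusted p = 0.0518 to 0.246 over the 5 results). In CD10- cells 5 of 9 members were called in M1B26, against 26.4% of genes, and 5 of 9 in MC26, against 20% of genes. In CD10+ cells it was 2 of 9 in M1B26, against 26.4%, and 3 of 9 in MC26, against 13.5%.

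**Figure D5:**
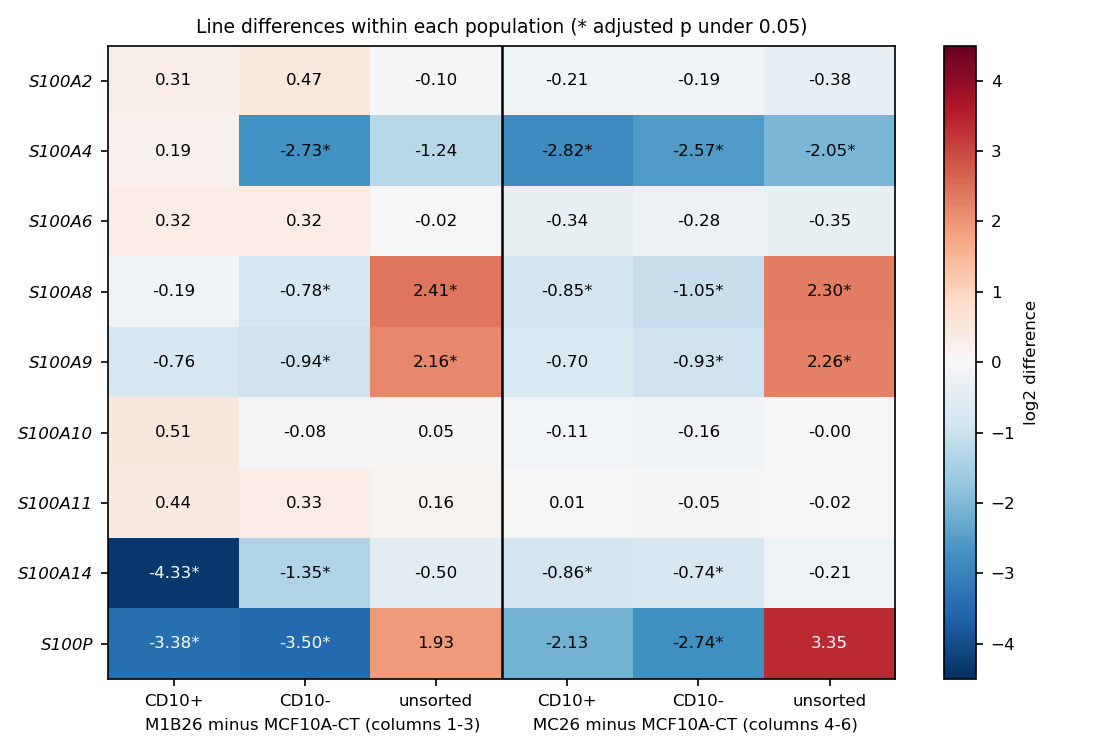
Differences in log2 level of the 9 tested S100 genes, M1B26 minus MCF10A-CT (left) and MC26 minus MCF10A-CT (right), within CD10+, CD10- and unsorted cells; asterisks mark an adjusted p under 0.05. On the probe sets used, *S100A8* and *S100A9* were above 2 in unsorted cells and below 0 in sorted cells of both derived lines. *S100A8* was only at -0.19 in CD10+ M1B26 cells. Its second probe set, not drawn, gave 0.44 in CD10+ M1B26, 0.45 in CD10+ MC26 and 1.40 in unsorted M1B26 cells. *S100A14* was at -4.33 in CD10+ M1B26 cells.

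Between the derived lines, CD10+ M1B26 cells had more *S100A4* than CD10+ MC26 cells (3.02 ± 0.38, adjusted p = 0.000145), more *S100A6* (0.67 ± 0.17, adjusted p = 0.0201) and less *S100A14* (-3.48 ± 0.25, adjusted p = 8.1e-07), 3 of 9 members against 11.7% of genes. The *S100A6* call was lost without MC26 CD10+ replicate 1 or either M1B26 CD10+ replicate (0.57 to 0.67, adjusted p = 0.106 to 0.167) and with quantile normalization, where the difference was 0.16 (adjusted p = 0.149). In CD10- cells none was called (0.0822% of genes; 4 of 9 had an unadjusted p under 0.05). Over the 3 populations, with equal weight, 5 of 9 members were called for M1B26 against MCF10A-CT (34.6% of genes), 3 of 9 for MC26 against MCF10A-CT (31.2%) and 5 of 9 for M1B26 against MC26 (8.09%). *S100A14* was lower in M1B26, set against MCF10A-CT (-2.06 ± 0.14, adjusted p = 3.41e-07) and *S100A4* lower in MC26 (-2.48 ± 0.22, adjusted p = 7.4e-06), each held under every alternative run.

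*S100A2*, *S100A6*, *S100A10* and *S100A11* were high on every array on the probe sets used. The second probe set of *S100A6* was at 7.53 to 48.4 and that of *S100A10* at 42.8 to 170. For *S100A10*, sorted minus unsorted in MCF10A-CT was -1.56 on the second and 0.22 on the one used. CD10+ M1B26 minus MC26 was -0.63 against 0.63, and the CD10 difference in M1B26 was 0.14 against 0.48. S100A6 (calcyclin) and S100A11 (calgizzarin) bind annexins, and S100A10 binds annexin A2. *S100A2* was at 12600 to 14963 on the 6 M1B26 arrays and 7961 to 12256 on the 6 MC26 arrays, without overlap. *S100A6* was at 12220 to 13559 on the M1B26 arrays and 7520 to 10770.4 on the MC26 arrays, again without overlap. Over populations both were higher in M1B26 than in MC26, by 0.49 ± 0.10 (adjusted p = 0.00994) and 0.53 ± 0.10 (adjusted p = 0.00432). *S100A11* was higher by 0.33 ± 0.09 (adjusted p = 0.0395) and than in MCF10A-CT by 0.31 ± 0.09 (adjusted p = 0.0185). With quantile normalization none of these 4 differences was called, and *S100A11* against MC26 was lost without any of 11 of the 12 arrays of these lines (adjusted p = 0.0521 to 0.137). Against MCF10A-CT it was lost without MCF10A-CT unsorted replicate 1 or CD10+ replicate 2 (0.23 to 0.28, adjusted p = 0.0503 to 0.0601). *S100A2* stood at 84.8% to 98.2% and *S100A6* at 76.3% to 90.1% of the brightest probe set on its array, and the part of this ceiling in their narrow range was not tested. The genes closest to them over the 9 groups included ribosomal protein genes (*RPL41* for *S100A2*, r = 0.993, and *RPL23A* for *S100A6*, r = 0.995).

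*S100A7*, also called psoriasin, was at 456 in unsorted MC26 replicate 2, 177 in unsorted M1B26 replicate 2 and 80.6 in CD10+ MCF10A-CT replicate 2, and at 1.32 to 36.8 on the other 15 arrays. The partner replicates of these arrays were at 18.8, 23.6 and 29.9. Unsorted MC26 replicate 2 was also the highest array for *S100P*.

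Of 10 other S100 genes, all were read and 4 tested. *S100A3*, known from the hair cuticle, followed *S100A4* in M1B26, with 1062 and 915 in CD10+ cells, against 150 and 206 in CD10- cells (2.48 ± 0.33, limma adjusted p = 0.000223), and its CD10 difference also exceeded that of MC26, by 2.32 ± 0.47 (adjusted p = 0.0203). It was the only one of the 4 called there, beside a list median of 0.52 and a median of 0.01 over all genes. Of 20 partners and receptors, 18 were tested and none differed with CD10 in M1B26 (median -0.02). For M1B26 against MCF10A-CT over populations 6 were higher and 2 lower (median 0.11, against 0.19 over all genes), with *ANXA6*, an annexin, at 1.56 ± 0.38 (adjusted p = 0.00629) and *TLR4*, a receptor for calprotectin, at 1.24 ± 0.31 (adjusted p = 0.00763). *CACYBP*, which binds S100A6, was higher in M1B26 (0.52 ± 0.10, adjusted p = 0.00112) and in MC26 (0.50 ± 0.10, adjusted p = 0.00171). *AGER*, the receptor for advanced glycation products and for S100 proteins, stayed at 7.86 to 30.1, near background. Of 18 cornified envelope genes 14 were read and 7 tested, and none changed with CD10 or with sorting. *TGM1*, a keratinocyte transglutaminase, and *SPRR1B*, a cornified envelope precursor, were lower in CD10+ M1B26 than in CD10+ MCF10A-CT cells (-3.78 ± 0.70, adjusted p = 0.00181, and -3.70 ± 1.08, adjusted p = 0.0218). Both were near background in CD10+ M1B26 cells (4.32 and 4.59, and 1.49 and 5.84), so the sizes of these differences are uncertain. In CD10+ MCF10A-CT cells they were at 97.9 and 56.0, and at 26.2 and 104.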

How the data were processed

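Gene expression was measured on 18 arrays (3 lines, 3 populations, 2 arrays per group, labelled biological replicates; p-values measure the spread between these arrays). The deposited values are linear intensities, which the authors made with Affymetrix Expression Console and MAS5 per the labels (no versions given); the study's methods name RMA, which these values do not show. Every array has the same median. The values were put on the scale log2(intensity + 1), and each of 19775 genes was read by 1 probe set; those with a mean at or under log2 3.93 were left out, leaving 12171. The number of arrays limits the precision.

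Differences were tested two-sided with limma 3.58.1 in R 4.3.3 (lmFit on 9 group means, eBayes with trend, 9 residual and 6.28 prior degrees of freedom), Benjamini-Hochberg adjusted within each of 25 contrasts at 0.05, of which 11 were added after the values were seen. Those 11 were sorted minus unsorted within each line, its differences from MCF10A-CT, and the line differences within CD10+ and within CD10- cells. Errors after ± are SEs. Members, lists and named genes were chosen with earlier results of these data known; all 10 members are named, with up to 4 members of each list by smallest p, and the 3 genes of most similar group means. The fit was tested on simulated data. Replicate numbers were checked for pairing: CD10+ and CD10- arrays of a number deviated together (r = 0.18 in M1B26, 0.36 in MC26, 0.63 in MCF10A-CT), unsorted arrays mostly did not (-0.01 to 0.12). Promoter sequences are from RefSeq, and all 10 members matched. Alternatives were normalization, centring, pseudocount, filter, replicate block, unmoderated test, arrays fitted, probe set summary and leaving out each array. No unit other than intensity was used.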

Additional observations from a re-analysis of the deposited data

Results flagged for a closer look

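Each result here was picked out because a change in 1 line differed from the same change in another line by a test of the difference itself (limma, adjusted p under 0.05).

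The CD10 difference of M1B26 exceeded that of MCF10A-CT by 2.92 for *S100A4* (adjusted p = 0.0122) and lay below it by -2.99 for *S100A14* (adjusted p = 0.00066). Against MC26 the values were 3.18 for *S100A4* (adjusted p = 0.00714) and -2.87 for *S100A14* (adjusted p = 0.000743). *S100A14* kept its call under all 17 alternatives run for each of these results, and *S100A4* lost it in 5 of 17 against MCF10A-CT and in 2 of 17 against MC26.

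The sorted minus unsorted difference was lower than that of MCF10A-CT in M1B26 by -2.89 for *S100A8* (adjusted p = 0.000713), -3.01 for *S100A9* (adjusted p = 0.00121), -2.34 for *S100A14* (adjusted p = 0.00121) and -5.38 for *S100P* (adjusted p = 0.00419). In MC26 the values were -3.24 for *S100A8* (adjusted p = 0.000638), -3.07 for *S100A9* (adjusted p = 0.00247) and -5.79 for *S100P* (adjusted p = 0.00495). Unsorted MCF10A-CT arrays, with 2 replicates, enter each of these values.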

How the results depend on the processing

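The 70 differences followed were those called in the main fit, with some uncalled ones chosen by name. Of these 70, directions held under every alternative except 1: with the median of a gene's probe sets, *S100A8* sorted minus unsorted in M1B26 turned to 0.48 (adjusted p = 0.292). The filter, the replicate block, the unmoderated test and the choice of arrays fitted leave the difference itself unchanged. Those alternatives could not turn a direction. Calls were kept on the same side in 64 of 70 with arrays centred on the tested genes, 59 with quantile normalization, 68 with a pseudocount of 16, 55 with no filter, 57 with only the arrays compared, 59 with the probe set median, 46 with the unmoderated test, 65 with the replicate block, and 429 of 522 when 1 array was left out.

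The number of members called moved as follows. With the unmoderated test it was 1 for the CD10 average, for the CD10 difference of M1B26 minus MCF10A-CT and minus MC26, for unsorted M1B26 minus MCF10A-CT, for sorted minus unsorted over lines and in M1B26, and for CD10- and CD10+ MC26 minus MCF10A-CT. It was 0 for unsorted MC26 minus MCF10A-CT and for sorted minus unsorted in MC26, and 3 for CD10- M1B26 minus MCF10A-CT. With only the arrays compared it was 4 for CD10 in M1B26, 0 for unsorted MC26 minus MCF10A-CT, and 5, 7 and 5 among CD10+ cells for MC26 minus MCF10A-CT, M1B26 minus MCF10A-CT and M1B26 minus MC26. Over populations M1B26 minus MCF10A-CT had 3 with quantile normalization, centring or no filter, and M1B26 minus MC26 had 2 with quantile normalization and 3 with centring or the probe set median. With no filter it was 1 for sorted minus unsorted over lines and in M1B26, 0 in MC26, 3 for CD10- MC26 and CD10- M1B26 minus MCF10A-CT, and 1 for CD10+ MC26 minus MCF10A-CT. With the probe set median, CD10- MC26 minus MCF10A-CT had 2.

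The replicate number was fitted as a block within each line, so it pairs populations of 1 line and no arrays of different lines. It left the differences as they were. With it on all arrays, 2 members were called for sorted minus unsorted in MC26, against 2.28% of genes, since *S100A8* was called (-0.99, adjusted p = 0.0337). For comparisons between lines the block also takes out spread between replicates that counts there, so those p-values are too small and are given as counts only: 4 members were called for unsorted M1B26 minus MCF10A-CT (1.22% of genes), 4 for CD10+ M1B26 minus MCF10A-CT (33.1%) and 5 for CD10+ M1B26 minus MC26 (15.1%). No CD10 call changed. A replicate block on the 12 sorted arrays alone, added after the values were seen, left 3 residual degrees of freedom. Its first form, with the intensity trend, had infinite prior degrees of freedom, so that each gene's spread was taken as known. It called 4 members in M1B26, 4 for the average and 1 in MC26, and was set aside for that reason. With an untrended prior (5.64 degrees of freedom) the calls were *S100A14* and *S100A4*, 2 in M1B26 and 2 for the average, and 0 in MC26, against 13.6%, 3.91% and 0% of genes. Among fits of only the arrays compared, that of CD10 in MC26 also had infinite prior degrees of freedom, with 0 members called, and 11 of the other 24 rested on 2 residual degrees of freedom.

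Leaving out 1 array gave these ranges of members called: 1 to 2 for CD10 difference averaged over lines, 1 to 2 for CD10 difference of M1B26 minus MC26, 1 to 2 for CD10 difference of M1B26 minus MCF10A-CT, 2 to 4 for CD10- M1B26 minus MCF10A-CT, 1 to 4 for CD10- MC26 minus MCF10A-CT, 2 to 4 for CD10+ M1B26 minus MC26, 1 to 2 for CD10+ M1B26 minus MCF10A-CT, 1 to 2 for CD10+ MC26 minus MCF10A-CT, 4 to 5 for M1B26 minus MC26 over populations, 3 to 6 for M1B26 minus MCF10A-CT over populations, 2 to 4 for MC26 minus MCF10A-CT over populations, 1 to 2 for sorted minus unsorted in M1B26, 0 to 1 for sorted minus unsorted in MC26, 3 to 4 for sorted minus unsorted in MCF10A-CT, 4 to 5 for sorted minus unsorted of M1B26 minus MCF10A-CT, 1 to 5 for sorted minus unsorted over lines, 1 to 2 for unsorted M1B26 minus MCF10A-CT and 1 to 4 for unsorted MC26 minus MCF10A-CT. A group left with 1 array is assumed to vary like the others. With 2 arrays per group, small differences of *S100A2*, *S100A6* and *S100A11* lie close to what the design can show.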
